A study of Heliothis virescens with 2 samples.

Results

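The translation initiation factors counted in the larval gut of *Heliothis virescens*, the tobacco budworm, are described here from 6 sequence tags, of 35963 different tags in all. The 6 tags were those whose protein name in the study's tables of overexpressed (OE) and underexpressed (UE) tags contained "initiation factor" or "eIF", the usual short form of eukaryotic initiation factor. Each was joined to the deposited tag with the same counts in both libraries and the sequence most similar to the one read from the study's tables. Sequences as read were not always identical to the deposited ones. The least similarity of a member joined was 0.863, measured as the share of letters of both sequences together that lie in matching runs. The 16 other tags that shared the first 24 bases with one of the 6 were taken as further forms, which gave 22 tags. Since those tables hold called tags only, the members were chosen by their fold change and P between these same libraries. Their fold changes are therefore a description and carry no test, and initiation factors that were not called have no name here and are not described.

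Vip–Sel was a strain selected in the laboratory with the *Bacillus thuringiensis* toxin Vip3Aa and resistant to it, and Vip–Unsel was its susceptible, unselected counterpart from the same field-derived population. The Vip–Sel insects had been reared without selection for several generations when RNA was taken, and no larva of either library had been fed Vip3Aa. HT-SuperSAGE, which counts 26-base tags that begin at a CATG site of the transcript, was run on 1 library per strain, each from the guts of 25 larvae of instar 3 in 5 RNA preparations of 5 guts, which were then pooled. With 1 library per strain there was no replicate, a difference between libraries cannot be told apart from a difference between strains, and the selection history is one line only.

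Initiation factors bring the ribosome, the initiator tRNA and the messenger RNA together at the start codon. eIF4E binds the cap at the 5′ end of the messenger, eIF4A is the RNA helicase that unwinds the leader, eIF3 is the large scaffold of many subunits on the small ribosomal subunit, eIF5 triggers GTP hydrolysis on eIF2 when the start codon is found, and eIF5A, named as an initiation factor, also helps the ribosome through elongation and termination. The gut of a caterpillar makes large amounts of digestive enzymes, so its cells carry much protein synthesis.

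The sequences of the 6 named tags and of the most counted other form of each are shown because every value below rests on these letters, and because the forms differ only in the last bases, which are in capitals (bases 25 and 26, counted from 1 at the C of CATG). All were read from the deposited files, 5′ to 3′.
eIF4A, Tag_758: catgctggttggacgcacagtggtGA
eIF4A, form A26G: catgctggttggacgcacagtggtGG
eIF4E, Tag_4262: catgttacgtctgtggctagaaaaCT
eIF4E, form T26G: catgttacgtctgtggctagaaaaCG
eIF3C-like, Tag_626: catgttcgagctgccgcgccagcgCG
eIF3C-like, form C25T: catgttcgagctgccgcgccagcgTG
eIF3E, Tag_1460: catgttgtgatgggggctcaacctTT
eIF3E, form T26G: catgttgtgatgggggctcaacctTG
eIF5, Tag_3561: catgtaatatatagggatacgatcGG
eIF5, form G26C: catgtaatatatagggatacgatcGC
eIF5A, Tag_2643: catgatatggcacagcgtgcaagcCC
eIF5A, form C25T: catgatatggcacagcgtgcaagcTC

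Of the 6 tags, 1 was OE in Vip–Sel (eIF4A) and 5 were UE (eIF4E, eIF3C-like, eIF3E, eIF5 and eIF5A), as the choice of members fixes. A tag was called OE at a fold change (FC, the share of counts in Vip–Sel over that in Vip–Unsel) of at least 2.5 and UE at an FC of no more than 0.4, in both cases when the unadjusted one-sided P was under 0.05. By the same call 6.70% of the 15467 tested tags, those with at least 2 counts in both libraries together, were OE and 27.0% were UE. Among the 5237 tags counted in both libraries, as all 6 members were, 8.02% were OE and 30.0% UE. Vip–Sel held 1056080 counts and Vip–Unsel 268172, a ratio of 3.94, so a tag of equal share has 3.94 times as many counts in Vip–Sel. Of all counts, 53.4% (Vip–Sel) and 41.8% (Vip–Unsel) fell on each library's 10 leading tags. The intervals given are exact 95% (Clopper–Pearson) intervals that cover counting error only. They take counts as independent, and amplified reads are not independent molecules, so they can be too narrow even for that. In whole guts, fewer cells of a type and less RNA per cell cannot be told apart.

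The cap-binding group went in both directions. The name read for the eIF4A tag carried a suffix that was unsure, so which eIF4A protein it stands for is not known here. eIF4A, matched to the protein of the moth *Amyelois transitella*, was counted 54 times in Vip–Sel and 3 times in Vip–Unsel, where an equal share would have given 11.8 counts in Vip–Sel. Its share was 0.00511% [0.00384–0.00667] in the resistant library and 0.00112% [0.000231–0.00327] in the susceptible one, and its FC was 4.57 [1.48–22.9]. It was the single member with the higher share in Vip–Sel, and 32 counts against 3 would have been enough for the call. It ranked 843 by abundance in Vip–Sel and 3323 in Vip–Unsel. eIF4E, matched to *Spodoptera frugiperda*, was counted 1 time in Vip–Sel and 2 times in Vip–Unsel. These are the lowest counts of a member, and the FC of 0.127 had an interval of 0.00215–2.44, which spans 1. A total of 200 tested tags, itself included, had exactly these counts, and 1 more count in Vip–Sel would have ended the call.

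**Figure D1:**
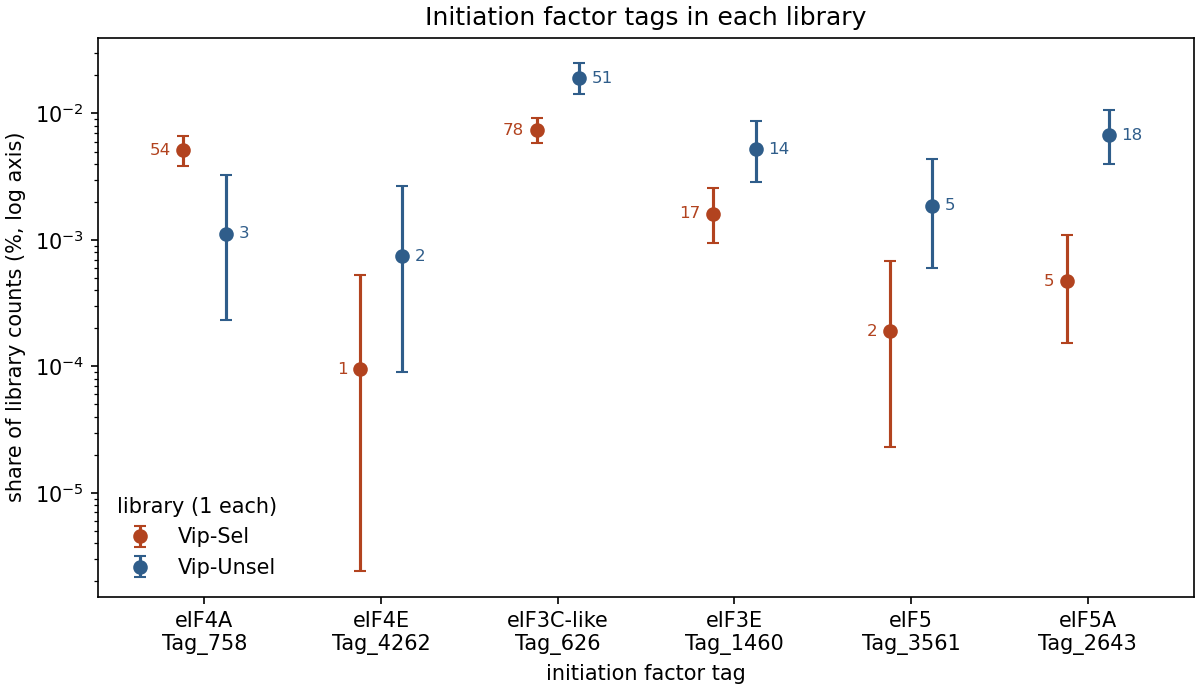
Share of library counts (%, log axis) of the 6 initiation factor tags in Vip–Sel (orange) and Vip–Unsel (blue), 1 library each; numbers are counts and bars are exact 95% intervals of counting error. eIF4A lies higher in Vip–Sel (54 counts against 3), and the other 5 lie higher in Vip–Unsel, with eIF4E resting on 1 and 2 counts.

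The eIF3 subunits were the most deeply counted of the members with a lower share in Vip–Sel. The eIF3C-like tag, matched to *Plutella xylostella*, had 78 counts in Vip–Sel, where an equal share would have given 201, and 51 in Vip–Unsel. Its share was 0.00739% [0.00584–0.00922] against 0.0190% [0.0142–0.0250], and its FC was 0.388 [0.269–0.564]. This was the member closest inside the UE threshold of 0.4, and 3 more counts in Vip–Sel would have ended the call. eIF3E, matched to *A. transitella*, was counted 17 times in Vip–Sel against 14 in Vip–Unsel, with an FC of 0.308 [0.143–0.676]. It was next inside the threshold, 6 counts from the end of its call. No member is known just outside the threshold, since the tables name called tags; of the tags of both libraries with an FC between 0.35 and 0.4, 77 of 161 were called, and 84 tags had an FC between 0.4 and 0.45.

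eIF5 and eIF5A, which are separate proteins in spite of their names, had the lowest FC values of the members. Both intervals overlap those of eIF4E and eIF3E, and that of eIF5 also overlaps that of eIF3C-like. eIF5A, matched to *Spodoptera exigua*, was counted 5 times in Vip–Sel and 18 times in Vip–Unsel, where an equal share would have given 70.9 counts in Vip–Sel. Its share was 0.000473% [0.000154–0.00110] against 0.00671% [0.00398–0.0106], an FC of 0.0705 [0.0205–0.197]. It was the tag farthest from the end of its call, which held up to 28 Vip–Sel counts. eIF5, matched to *A. transitella*, was counted 2 times in Vip–Sel against 5 in Vip–Unsel, with an FC of 0.102 [0.00967–0.620]. There were 31 tested tags with these counts, and the call held up to 7 counts in Vip–Sel.

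**Figure D2:**
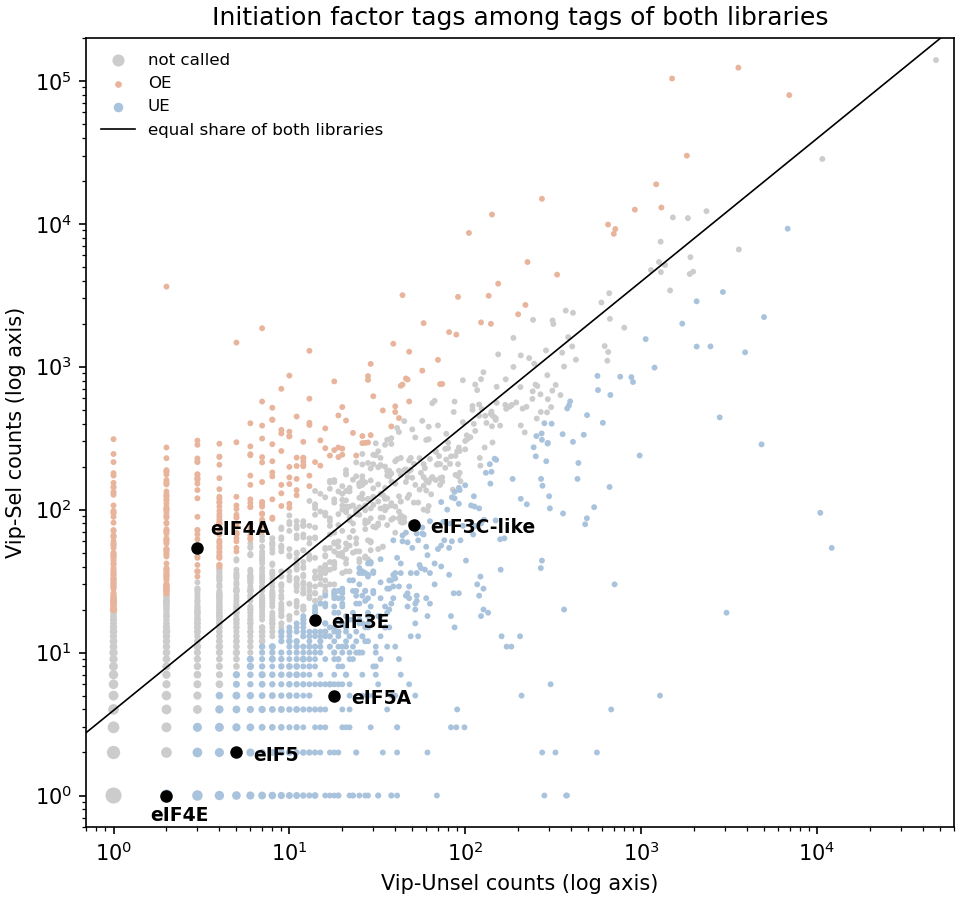
Vip–Sel counts against Vip–Unsel counts (log axes) of the 5237 tags of both libraries, coloured by call, with point area growing with the number of tags; the line marks equal share of both libraries and the 6 initiation factor tags are in black. eIF4A (54 against 3) lies above the line and the other 5 below it, with eIF3C-like at 78 against 51 closest to the uncalled tags on the UE side.

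Counted tags can also be set on the contigs to which they matched, and all 6 lay in the orientation of the contig. On its contig of 1646 bases the eIF4A tag covered 1477 to 1502, 144 bases from the end, and the eIF5 tag at 1788 to 1813 of 1922 bases, 109 from its end. The eIF4E tag was at 1052 to 1077 of 1333, the eIF3E tag at 1299 to 1324 of 1662, and the eIF5A tag at 735 to 760 of 1121. The eIF3C-like tag, at 333 to 358 of 740, lay 382 bases from the end, the farthest of the 6. Its GC content was 73.1%, the highest of the members, and that of eIF5 was 38.5%, the lowest, against a median of 61.5% over the tested tags.

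The other forms of the tags, which the choice did not use but which come from the same libraries, were thinly counted. The Vip–Sel library held 32 counts of the 16 forms and Vip–Unsel 14, and 10 of them had 1 count in both libraries together. They differed from the named tag at base 26 only in 9 cases, at base 25 only in 4 and at both in 3. Of the 6 forms with enough counts to be tested none was OE and 1 was UE, where 27.0% of all tested tags were UE. A form with the same first 24 bases was not unusual, as 76.9% of the 10354 tags with at least 3 counts had at least 1.

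The other forms of eIF4A did not lie on the side of the named tag. Its form A26G was counted 5 times in Vip–Sel and 3 times in Vip–Unsel, and the 4 other forms together had 8 against 3, a ratio of 0.677 [0.163–3.96], so they lay below 1 while the named tag lay above it, with an interval that spans 1. Of all eIF4A counts the named tag held 87.1% in Vip–Sel but 50.0% in Vip–Unsel. Summed over all forms eIF4A had 62 counts against 6, an FC of 2.62 [1.14–7.42], still OE and close to the threshold of 2.5. For eIF3C-like the form C25T had 13 counts against 2, and the sum over its forms was 95 against 56, an FC of 0.431 [0.306–0.611], no longer called. For eIF3E the form T26G, with 2 counts against 4, was the 1 form called UE, and the sum of 20 against 19 gave an FC of 0.267 [0.135–0.529]. For eIF4E the other forms were seen in Vip–Sel only, 3 counts against 0, too few to place them on either side. The sum of 4 against 2 gave an FC of 0.508 [0.0728–5.61], not called. eIF5 had 1 other form with 1 count in Vip–Unsel and eIF5A 1 with 1 count in Vip–Sel, and their sums stayed UE, at 0.0846 [0.00835–0.473] for eIF5 and 0.0846 [0.0275–0.223] for eIF5A.

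**Figure D3:**
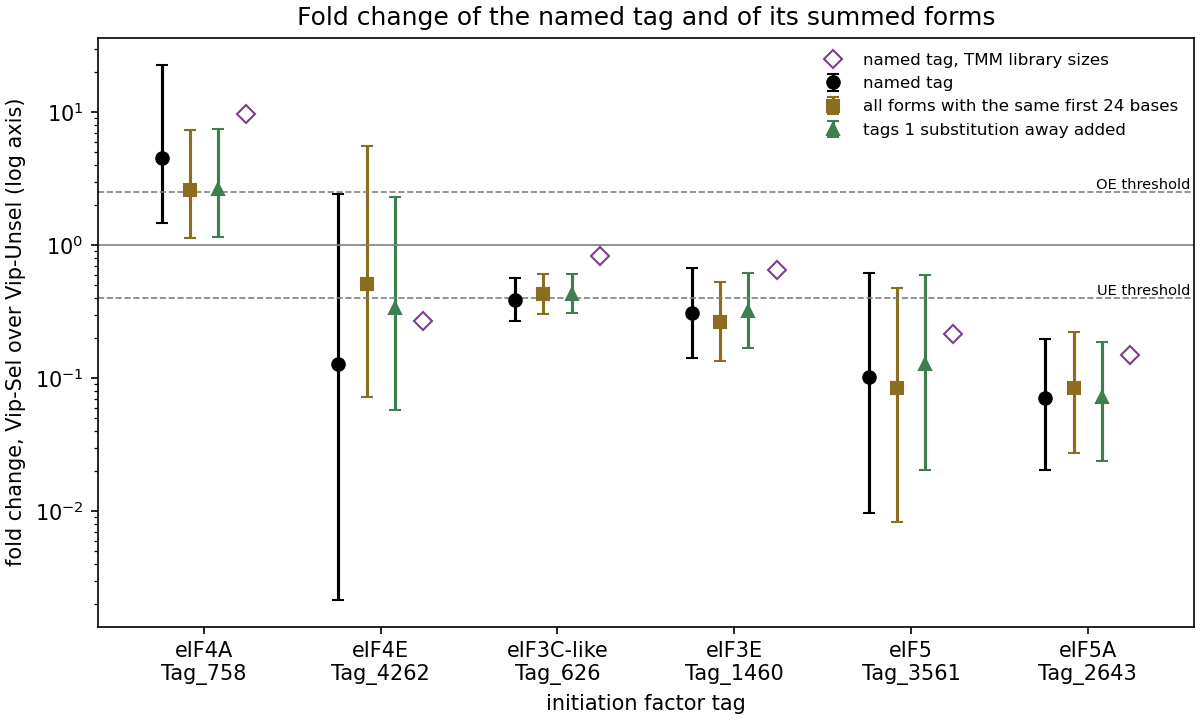
Fold change of each initiation factor, Vip–Sel over Vip–Unsel (log axis), for the named tag, for all forms with the same first 24 bases, with tags 1 substitution away added, and for the named tag with TMM library sizes (open diamonds, no interval); bars are exact 95% intervals of counting error and dashed lines are the call thresholds. Summing the forms lowers eIF4A from 4.57 to 2.62 and lifts eIF3C-like from 0.388 to 0.431, past the UE threshold.

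Summed over the 6 tags, initiation factors were counted 157 times in Vip–Sel, a share of 0.0149% [0.0126–0.0174], against 93 times and 0.0347% [0.0280–0.0425] in Vip–Unsel, a ratio of 0.429 [0.330–0.560]. The eIF3 sum was 95 against 65, a ratio of 0.371 [0.268–0.517], and the eIF5 and eIF5A sum was 7 against 23, a ratio of 0.0773 [0.0280–0.186]. The eIF4 sum was 55 against 5, a ratio of 2.79 [1.13–8.94], and eIF4A gave 54 of those 55. Without the eIF4A tag the sum of the other 5 was 103 against 90, a ratio of 0.291 [0.217–0.390]. As all 5 were chosen as UE, a ratio of no more than 0.4 was fixed in advance. All these sums hold called tags only, so they do not give the share of initiation factors as a whole. Leaving out any other single tag gave a ratio from 0.435 to 0.515. With all forms added the sum was 189 against 107, a ratio of 0.449 [0.352–0.574].

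The scale set much of these sizes. TMM library sizes, which assume that most tags do not differ, raised every log2 ratio by 1.09 and changed the calls over all tested tags from 1037 OE and 4169 UE to 2588 and 3238, that is from 19.9% OE among the calls to 44.4%. On this scale each member stayed on its side of 1, but eIF3C-like (0.824), eIF3E (0.654) and eIF4E (0.269) were no longer called, whereas eIF4A (9.70), eIF5 (0.216) and eIF5A (0.15) were. The 6-tag sum was then 0.910, and it passed to the other side of 1 without the eIF3C-like tag (1.01) or without eIF5A (1.09). The eIF3C-like call was also lost when the 10 most abundant tags of each library were left out of the totals (log2 FC of −1.04 in place of −1.36).

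Other parts of the translation machinery in the same tables, which were likewise chosen by their calls, are set beside the initiation factors without a test between the lists. Elongation factors, which carry tRNA to the ribosome and move it along the messenger, were UE in all 5 tags that could be joined of 6 entries, and their summed ratio was 0.329 [0.320–0.339] with 10197 counts against 7865. With TMM library sizes the ratio was 0.699 and 1 of the 5 tags was still UE. EF1-alpha (Tag_16), which delivers aminoacyl-tRNA, had 9229 counts against 6819 and an FC of 0.344 [0.333–0.355]; its depth makes its interval far narrower than that of any initiation factor. Without it the other 4 had a ratio of 0.235 [0.215–0.257]. Amino acid-tRNA ligases, which charge tRNA, were OE in 1 tag and UE in 4, with a summed ratio of 0.305 [0.190–0.492], or 0.647 with TMM, where 1 was OE and 3 were UE. The OE tag, seryl-tRNA synthetase (Tag_1195), had 24 counts against 1 and an FC of 6.09, with an interval of 0.994–251 that spans 1. Ribosomal protein tags were 19 OE and 22 UE, with a summed ratio of 0.868 [0.831–0.906] that became 1.84 with TMM library sizes, so its direction depends on the scale. With TMM 19 ribosomal protein tags were OE and 9 UE. The median log2 FC was −2.34 over the initiation factors, −2.18 over the elongation factors, −2.84 over the tRNA ligases and −1.42 over the ribosomal proteins. Since these lists hold called tags only, a UE majority alone puts a median below the UE threshold. The medians rest on library totals, and TMM library sizes raised every log2 ratio by 1.09.

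**Figure D4:**
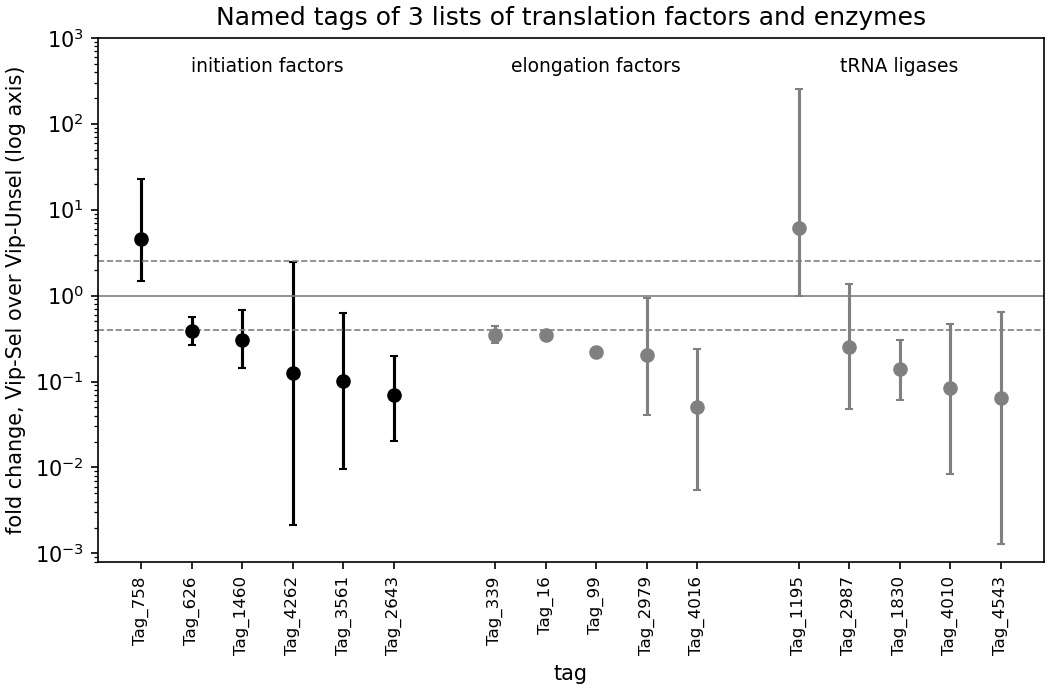
Fold change, Vip–Sel over Vip–Unsel (log axis), of the 6 initiation factor tags (black), the 5 joined elongation factor tags and the 5 tRNA ligase tags (grey), with exact 95% intervals of counting error; dashed lines are the call thresholds at 2.5 and 0.4. Initiation factors and tRNA ligases each have 1 tag above 2.5, and the elongation factors have none.

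Markers of the cell types that a dissected gut can hold were taken from the same tables of called tags, so each was OE or UE, and counted in both libraries, by that choice. Of 27 digestive enzyme entries, markers of the gut epithelium, 26 could be joined, 15 OE and 11 UE. Their summed share was 9.86% in the resistant library against 3.65% in the susceptible one, a ratio of 2.70 [2.65–2.76] (5.73 with TMM library sizes). A single chymotrypsin (Tag_4) gave 79387 of the 104111 Vip–Sel counts. The entry not joined was an OE trypsin-like protease (Tag_5), whose counts are therefore outside the sum. Of the 7 muscle tags 2 were OE, both named as myosins other than muscle myosin, and 5 were UE, and the 5 had a ratio of 0.235 [0.203–0.272], or 0.498 with TMM. The sum of all 7 was 0.108% against 0.171%, a ratio of 0.631 [0.565–0.704] or 1.34 with TMM, and the non-muscle myosin heavy chain (Tag_101) gave 755 of its 1140 Vip–Sel counts. Of the 4 cuticle tags, markers of epidermis and trachea, 1 was OE and 3 were UE, at 0.102% against 0.259%, a ratio of 0.394 [0.358–0.434] or 0.836 with TMM. Their part in the initiation factor values was not tested.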

How the data were processed

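HT-SuperSAGE data of gut RNA from 1 Vip–Sel and 1 Vip–Unsel library were used. The deposited values are raw counts per 26-base tag; the authors split the reads by library index, discarded poor or incomplete reads and tags of other lengths, and counted identical tags, with no alignment. An adapter with unspecified end bases is ligated next to bases 25 and 26, and its part in the forms was not tested. No column was left unassigned.

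FC was the ratio of shares where 1 replaced a 0 count. P was Audic and Claverie's cumulative probability, one-sided, as in the study's methods; it compares libraries, not strains. The floor of 3 counts corresponds to 0.000284% (Vip–Sel) and 0.00112% (Vip–Unsel). Member and list names came from text read from the study's tables, of which 1875 of 1973 entries could be joined. All members are named, with at most 4 elongation factors given values and the form with the most counts besides each named tag. The members, lists and markers were chosen with earlier results of these data known. No reference was used here, so a list of initiation factor genes independent of the calls was not run. edgeR's quasi-likelihood test cannot be fitted without replicates; edgeR 4.0.16 gave TMM factors and DESeq2 1.42.0 size factors. Python 3.11.15, numpy 2.4.6, scipy 1.17.1, matplotlib 3.10.9 and R 4.3.3 were used. Alternatives were other library sizes, sums over forms, tests, adjustments, thresholds and filters.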

Additional observations from a re-analysis of the deposited data

How the results depend on the processing

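No paired analysis was possible because each strain had 1 library, and for the same reason no replicate could be left out. Alternatives that need reference genes were not run. The sum of the initiation factor tags had a log2 ratio of −1.22; it was −0.14 with TMM and −0.14 with DESeq2 library sizes, −0.78 over the other forms only and −1.78 without Tag_758, the last an alternative chosen after seeing the data. The eIF3 sum moved from −1.43 to −0.34 with TMM and −0.35 with DESeq2. With the other forms only, eIF4A reversed to −0.56 and the eIF4 sum to −0.10, on 8 counts against 3 for eIF4A; the cause was not tested. The number of UE members fell from 5 to 2 with TMM and with DESeq2, and to 3 with at least 10 counts, with forms summed and with tags 1 substitution away added; with Fisher's exact test or Benjamini-Hochberg adjustment it was 4, the lost tag being eIF4E. Over all tested tags, OE calls went from 1037 to 613 with 3 counts in place of 0 and to 2588 with TMM or DESeq2, and UE calls from 4169 to 992 with at least 10 counts and to 9547 with no filter, which change how many tags are tested. In all, 86 values kept their direction and side of the threshold or stayed within the limit set, 12 lost the call, 16 moved and 2 reversed. Depth limits eIF4E and eIF5 most, at 3 and 7 counts in both libraries together.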

Other observations

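The same tables held 7 other joined entries classed under translation, 3 OE and 4 UE, and their calls chose them. Of these, 3 tags were picked after their values were seen and are given as values only. The others were Tag_670 (67 counts against 5, OE) and Tag_3952 (2 against 5), Tag_3307 (3 against 4) and Tag_2857 (4 against 5), all UE. The tag matched to the tRNA N6-adenosine threonylcarbamoyltransferase (Tag_124), an enzyme that modifies tRNA, was counted 571 times in Vip–Sel and 48 times in Vip–Unsel, an FC of 3.02 [2.25–4.14]. Translation machinery-associated protein 16 (Tag_386) had 156 counts against 7, an FC of 5.66 [2.68–14.3]. In the other direction, the WD repeat-containing protein WDR43 (Tag_2652), a factor of ribosome assembly in the nucleolus, had 5 counts against 52, an FC of 0.0244 [0.00761–0.0607].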
